A study of Arabidopsis thaliana with 8 samples.

Results

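The class III peroxidase genes PER14 to PER73 were followed as 1 family of 60 genes on chromosomes 2 to 5 of Arabidopsis thaliana. The members were taken from a list of their locus tags, and their probes were found through the transcript accession that the array's design gives each probe. Of the 60 genes, 59 had at least 1 probe, 78 probes in all, among the 25427 locus tags that had a probe on the array, and PER48 (AT4G33870) had none. For 10 of the 60, the RefSeq gene table also gives a PER number, which was that of the list in all 10 cases.

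Class III peroxidases are secreted plant enzymes that use hydrogen peroxide to oxidize phenolic compounds. In the cell wall they couple monolignols into lignin, cross-link wall proteins and phenolics, and seal the Casparian strip, the lignin band around root endodermal cells. Some of them also make reactive oxygen species, which serve in the oxidative burst against microbes and in the growth of root hairs. Total peroxidase activity in a plant is the sum over many of these genes. Earlier work on plants that carry ThbZIP1, cited in the study's discussion, described raised peroxidase activity together with better tolerance of salt and drought. The arrays hold transcript signals of plants given water or ABA, so enzyme activity and those stresses are not analysed here.

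The plants were 4-week-old Arabidopsis of the Columbia accession, either wild type (WT) or ThbZIP1 overexpression plants (OE), T3 homozygous lines that carry the gene of a bZIP transcription factor from the salt-tolerant shrub Tamarix hispida. WT and OE were each given water or 10 µM abscisic acid (ABA), the hormone of drought and salt responses, for 3 h. Whole seedlings with roots and shoots were pooled within each treatment, and each of the 4 groups had 2 arrays, described in the methods as biological replications. The promoter that drives the transgene and the number of lines in the pool are not given in the sources used here, and the transgene itself was not checked on these arrays. Another label field names other plants and a salt treatment for some of the same arrays and was not used.

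Between 68.0% and 72.1% of the 43603 gene probes were well above background on each array. Across probes, r was 0.979 to 0.986 between the replicates of a group. WT in water replicate 1 had 1148 outlier spots against 6 to 24 on the other arrays, and PER45, PER66 and PER67 lack a value there. One slide carried all the OE arrays and was scanned on a day of its own, while the WT arrays were spread over 3 further slides that shared a different scan day, so OE against WT cannot be told apart from the slide or the scan day. In WT, the water arrays and the ABA arrays also lay on different slides, whereas in OE both treatments shared the slide. The leaf markers, 8 genes of Rubisco and the light-harvesting complex, averaged 6.48 to 7.02 on the log2 scale on the 8 arrays, with 6 of the 8 genes measured on WT in water replicate 1, and the 2 root markers averaged -2.36 to 0.52. In seedlings taken whole, fewer cells of a type and less RNA per cell cannot be told apart.

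Values are given as normalized log2 signal, the log2 of the spot's processed intensity minus the 75th percentile of its array, so that 0 is that percentile and a step of 1 is a doubling. Signals of different probes cannot be ranked against each other, so each member was compared with itself across arrays. A member with several probes was read from its brightest one. Of the 59 members with a probe, 44 had a group with both arrays well above background and were tested, and 30 of these passed that mark on all 8 arrays. On single arrays, between 37 and 43 members were above background. Both arrays were above background for 38 members in WT in water, 37 in WT under ABA, 39 in OE in water and 36 in OE under ABA.

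The members with no signal well above background on any array were PER14 (AT2G18140), PER18 (AT2G24800), PER24 (AT2G39040), PER26 (AT2G43480), PER36 (AT3G50990), PER41 (AT4G17690), PER58 (AT5G19880), PER60 (AT5G22410), PER61 (AT5G24070) and PER65 (AT5G47000), 10 in all. PER36 is known for loosening the outer wall of seed coat cells, and seeds were not sampled here. Another 5 members, PER44 (AT4G26010), PER46 (AT4G31760), PER64 (AT5G42180), PER68 (AT5G58400) and PER73 (AT5G67400), were above background on some arrays but in no group on both, and were not tested.

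**Figure D1:**
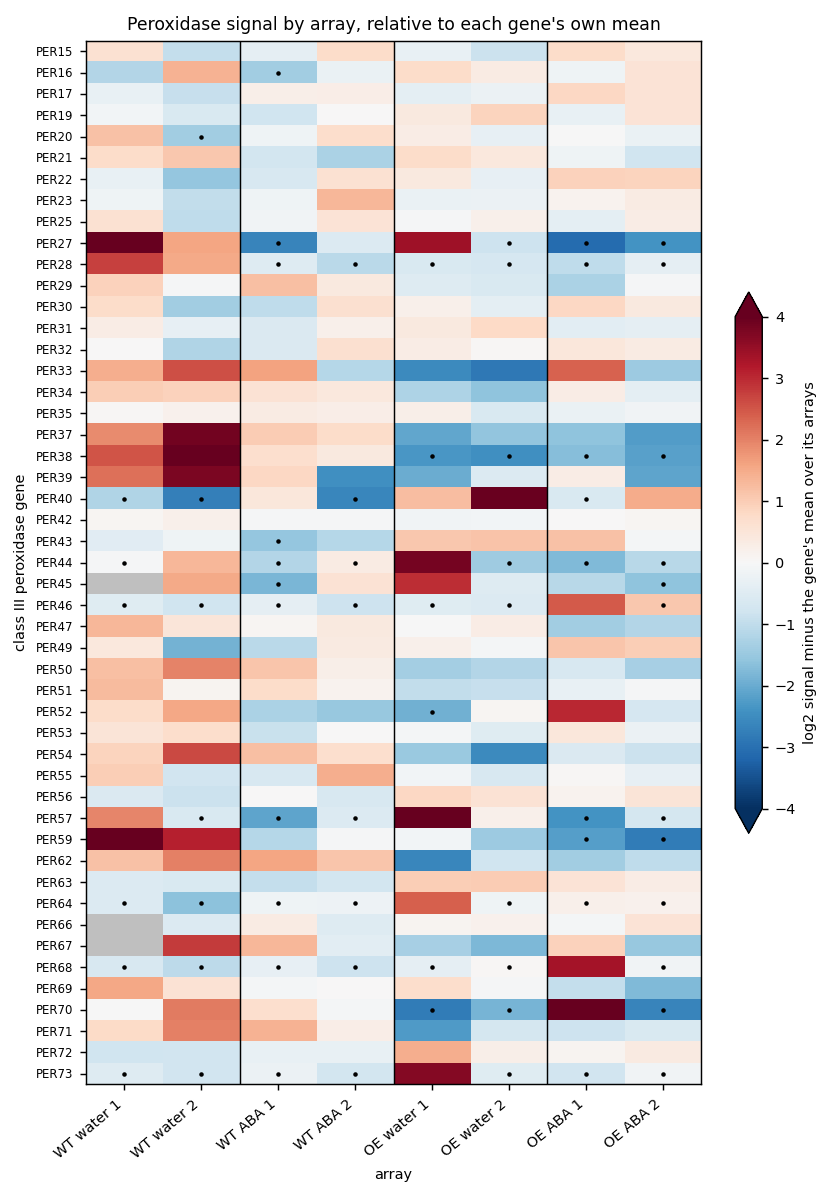
Signal of the peroxidase genes that were well above background on at least 1 array, one line per gene and one column per array; colour is the log2 signal minus the gene's own mean over its arrays, a dot marks an array on which the probe was not well above background, grey marks a missing value, and the colour scale ends at 4 in either direction. PER37, PER38, PER50, PER54 and PER62 are red in WT in water and blue in OE in water, and PER44, PER57 and PER73 are red on OE water replicate 1.

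In water, the largest set of differences between OE and WT among the peroxidases was a loss of signal in OE. Of the 44 tested members, 12 were lower in OE than in WT (27.3%), where 10.6% of all 31262 tested probes were lower at the same threshold, a Benjamini-Hochberg adjusted p under 0.05 in limma and a fold of at least 2. Another 4 members were higher (9.09%), where 8.45% of all probes were higher. The median log2 fold change was -0.38 over the tested members and -0.02 over all tested probes. Members with several probes count once here, whereas the share over the array counts probes.

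The members of the apoplastic oxidative burst and defence were PER33, PER34, PER37, PER62 and PER71, a list made with these values known. All 5 passed the test as lower in OE in water, where 10.6% of all probes were lower, so this count is a description. Their median log2 fold change was -3.30 in water and -1.55 under ABA. Under ABA 2 of the 5 passed as lower, where 6.52% of all probes were lower. PER33 (AT3G49110) and PER34 (AT3G49120) encode neighbouring, closely related enzymes that make much of the hydrogen peroxide of the burst after microbial elicitors. PER34 read 4.58 and 4.52 in WT in water, 4.15 and 4.02 in WT under ABA, 2.35 and 1.98 in OE in water, and 3.89 and 3.21 in OE under ABA. Both OE arrays in water lay below every other array, and the ABA arrays of OE lay below those of WT. PER34 was thus 5.23-fold lower in OE in water (log2 fold change -2.39, SE 0.26, adjusted p = 0.00367), while under ABA the difference was -0.53 (SE 0.26, adjusted p = 0.198).

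PER33 read -0.03 and 1.08 in WT in water, 0.12 and -2.64 in WT under ABA, -4.03 and -4.36 in OE in water, and 0.85 and -2.95 in OE under ABA. The groups did not overlap in water, but each ABA group held 1 high and 1 low array. The difference in water was 26.5-fold (log2 fold change -4.73, SE 1.40, adjusted p = 0.0488). It passed the threshold narrowly and was lost under 9 of 14 alternatives, with adjusted p between 0.0201 and 0.17. Under ABA the groups overlapped and the log2 difference was 0.22 (SE 1.40, adjusted p = 0.929).

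PER37 (AT4G08770), whose overexpression is known to restrain growth, read -0.49 and 1.48 in WT in water, -1.36 and -1.66 in WT under ABA, -4.47 and -3.98 in OE in water, and -3.99 and -4.62 in OE under ABA. All 4 OE arrays lay below all 4 WT arrays. The member was 26.3-fold lower in OE in water (log2 fold change -4.72, SE 0.63, adjusted p = 0.00607) and 6.96-fold lower under ABA (-2.80, SE 0.63, adjusted p = 0.0362). The OE average was -4.22 in water and -4.31 under ABA, whereas the WT average was 0.49 in water and -1.51 under ABA.

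PER62 (AT5G39580), named in root hair growth in the cold and in defence, read -1.02 and -0.18 in WT in water, -0.62 and -1.08 in WT under ABA, -4.80 and -3.00 in OE in water, and -3.59 and -3.21 in OE under ABA. Again no OE array reached any WT array. It was 9.87-fold lower in OE in water (log2 fold change -3.30, SE 0.61, adjusted p = 0.0135) and 5.86-fold lower under ABA (-2.55, SE 0.61, adjusted p = 0.0424). Its second probe, A_84_P785766, was not well above background on any array, at -8.73 to -7.81, and was not tested. PER71 (AT5G64120), a cell wall peroxidase tied to lignin and to resistance against fungi, read 1.32 and 2.58 in WT in water, 1.95 and 0.83 in WT under ABA, -1.72 and -0.15 in OE in water, and -0.28 and -0.04 in OE under ABA. Its OE and WT arrays did not overlap under either treatment, and it was 7.38-fold lower in water (log2 fold change -2.88, SE 0.68, adjusted p = 0.0252), while the log2 difference under ABA, -1.55 (SE 0.68), did not pass the test (adjusted p = 0.164).

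**Figure D2:**
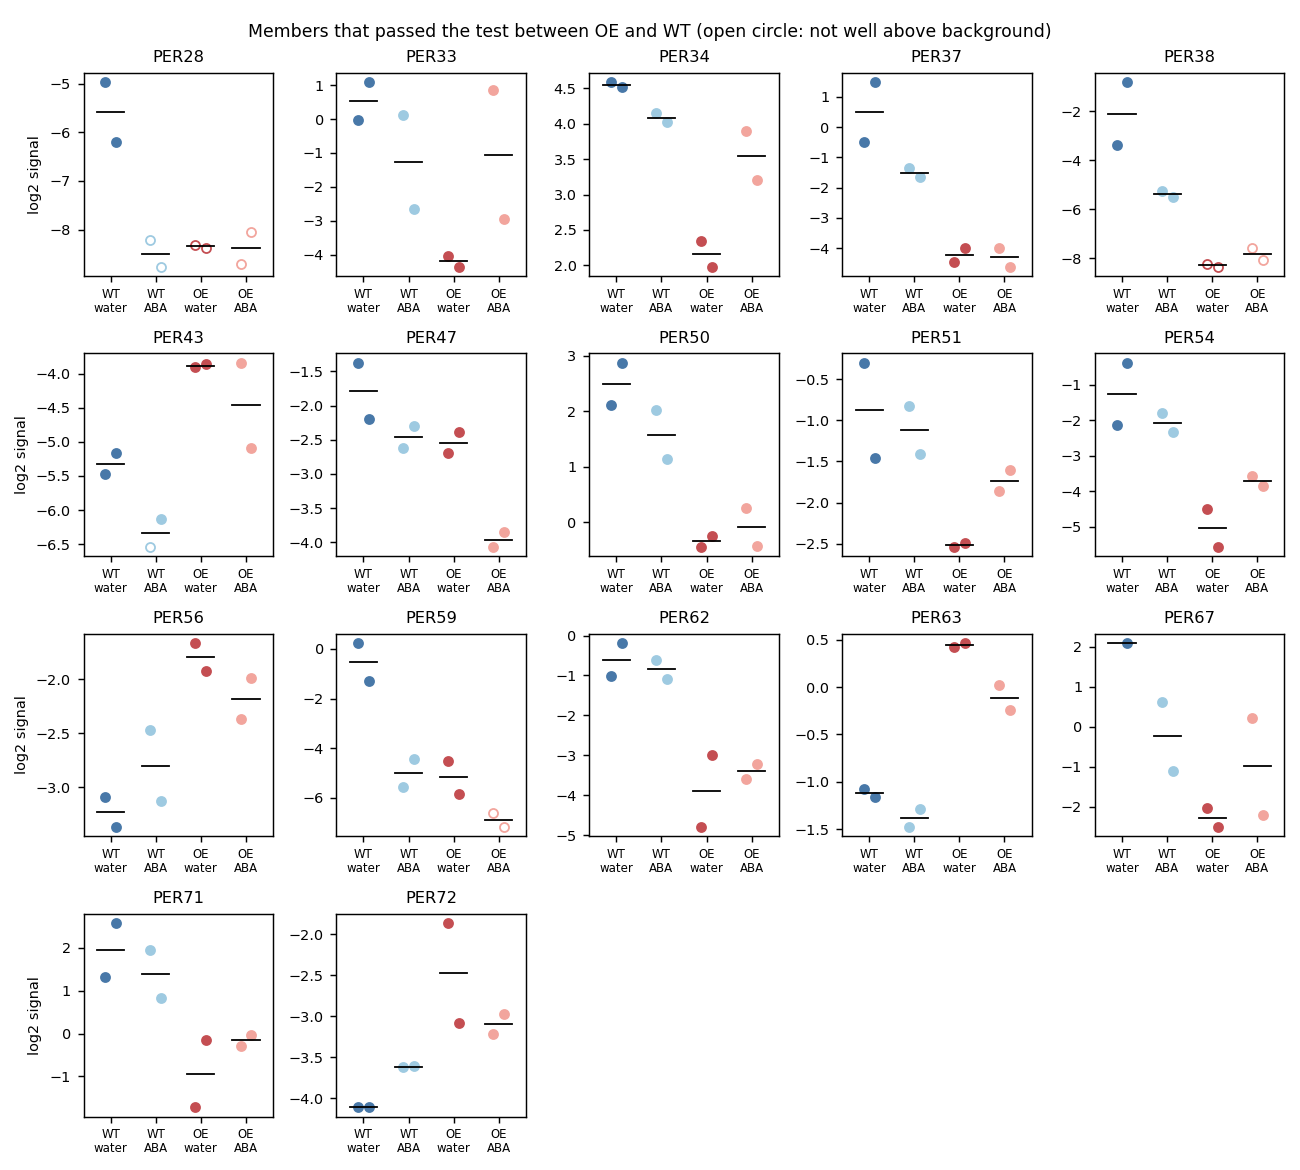
Normalized log2 signal of the 17 members that passed the test between OE and WT in water or under ABA, with 1 point per array, a line at the group mean, open circles where the probe was not well above background, and a scale of its own for each gene; PER67 has 1 value in WT in water. The OE points of PER34, PER37, PER38, PER50, PER51, PER54, PER62 and PER71 lie below all WT points, and those of PER43, PER56, PER63 and PER72 lie above.

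The other 7 members that were lower in OE in water were PER28, PER38, PER50, PER51, PER54, PER59 and PER67. PER38 (AT4G08780) stands next to PER37 with no gene between them. It read -3.39 and -0.82 in WT in water and -5.24 and -5.51 in WT under ABA, while all 4 OE arrays, -8.24 and -8.36 in water and -7.60 and -8.06 under ABA, were not well above background. The signal in OE in water was therefore at least 20.8-fold lower (group means -2.10 in WT and -8.30 in OE, SE of the log2 fold change 0.77, adjusted p = 0.00503). Under ABA it was at least 2.15-fold lower (group means -5.37 in WT and -7.83 in OE), which did not pass the test (adjusted p = 0.0804).

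PER50 (AT4G37520) and PER51 (AT4G37530) are another pair of direct neighbours. PER50 read 2.12 and 2.88 in WT in water, 2.02 and 1.14 in WT under ABA, -0.45 and -0.25 in OE in water, and 0.26 and -0.43 in OE under ABA, so that every OE array lay below every WT array. It was 7.21-fold lower in water (log2 fold change -2.85, SE 0.41, adjusted p = 0.0073) and 3.17-fold lower under ABA (-1.66, SE 0.41, adjusted p = 0.0459). Its other probe, A_84_P13891, was also lower in water (-2.69, SE 0.47, adjusted p = 0.0113), but under ABA it did not pass (-1.46, SE 0.47, adjusted p = 0.0845). PER51 read -0.30 and -1.46 in WT in water, -0.83 and -1.41 in WT under ABA, -2.54 and -2.49 in OE in water, and -1.86 and -1.61 in OE under ABA. Its OE arrays in water were the lowest of the 8, and it was 3.11-fold lower in water (log2 fold change -1.64, SE 0.40, adjusted p = 0.0278), with a log2 difference of -0.62 under ABA (SE 0.40, adjusted p = 0.317).

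PER54 (AT5G06730) lies beside PER53 (AT5G06720), which encodes an enzyme long used as a model of lignin-forming peroxidases. PER54 read -2.12 and -0.37 in WT in water, -1.80 and -2.33 in WT under ABA, -4.49 and -5.57 in OE in water, and -3.58 and -3.86 in OE under ABA. No OE array reached a WT array, and the member was 13.8-fold lower in OE in water (log2 fold change -3.79, SE 0.63, adjusted p = 0.0102), with -1.66 under ABA (SE 0.63, adjusted p = 0.123). PER53 read -1.47 and -1.26 in WT in water, -2.88 and -1.96 in WT under ABA, -2.06 and -2.47 in OE in water, and -1.51 and -2.20 in OE under ABA, and passed no test, with a log2 difference of -0.90 in water (SE 0.38, adjusted p = 0.117).

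PER59 (AT5G19890) read 0.25 and -1.29 in WT in water, -5.55 and -4.44 in WT under ABA, -4.51 and -5.84 in OE in water, and -6.60 and -7.19 in OE under ABA, the last 2 not well above background. The WT arrays in water stood far above the other 6 arrays. It was 25.2-fold lower in OE in water (log2 fold change -4.66, SE 0.70, adjusted p = 0.00804). Under ABA it was at least 2.63-fold lower (group mean -6.89 in OE), with adjusted p = 0.116. PER28 (AT3G03670) had a similar shape at a dimmer level, -4.97 and -6.19 in WT in water and not well above background on the other 6 arrays, where it read -8.77 to -8.05. It was at least 1.87-fold lower in OE in water (group means -5.58 in WT and -8.35 in OE, adjusted p = 0.00956). It is counted among the 12 by its fitted difference, while the bound that can be read is under 2-fold. PER28 entered the test through WT in water alone, the group where it was high, so its adjusted p is not read as support. Its fitted log2 difference in water ran from -3.38 to -0.58 over the alternatives.

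PER67 (AT5G58390) has 1 value in WT in water, 2.1, and read 0.63 and -1.11 in WT under ABA, -2.03 and -2.51 in OE in water, and 0.23 and -2.21 in OE under ABA. It was 20.7-fold lower in OE in water (log2 fold change -4.37, SE 1.18, adjusted p = 0.0469). The call was lost in 7 of 13 alternatives. Its second probe, A_84_P830800, has both WT arrays in water, -2.14 and -1.13, against -5.79 and -6.13 in OE, of which 1 was not well above background. Its log2 fold change was -4.33 (SE 0.92, adjusted p = 0.0194).

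The 4 members that were higher in OE in water were PER43, PER56, PER63 and PER72. Of these 4, PER63 (AT5G40150) had the smallest SE. It read -1.08 and -1.16 in WT in water, -1.48 and -1.29 in WT under ABA, 0.43 and 0.47 in OE in water, and 0.02 and -0.24 in OE under ABA. All OE arrays lay above all WT arrays, and the member was 2.97-fold higher in water (log2 fold change 1.57, SE 0.15, adjusted p = 0.003) and 2.43-fold higher under ABA (1.28, SE 0.15, adjusted p = 0.00702). PER43 (AT4G25980) read -5.47 and -5.17 in WT in water, -6.54 and -6.13 in WT under ABA, where the first was not well above background, -3.91 and -3.86 in OE in water, and -3.84 and -5.09 in OE under ABA. It was 2.71-fold higher in OE in water (log2 fold change 1.44, SE 0.41, adjusted p = 0.0426) and 3.67-fold higher under ABA (1.88, SE 0.41, adjusted p = 0.0328), and each call was lost in 9 of 14 alternatives.

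PER56 (AT5G15180) read -3.09 and -3.37 in WT in water, -2.47 and -3.13 in WT under ABA, -1.66 and -1.92 in OE in water, and -2.37 and -1.99 in OE under ABA. The OE arrays lay above the WT arrays throughout, with a difference of 2.71-fold in water (log2 fold change 1.44, SE 0.27, adjusted p = 0.0142) and a log2 difference of 0.62 under ABA (SE 0.27, adjusted p = 0.162). PER72 (AT5G66390), a peroxidase of lignified stem tissue and of the Casparian strip, read -4.11 and -4.10 in WT in water, -3.62 and -3.61 in WT under ABA, -1.86 and -3.08 in OE in water, and -3.21 and -2.97 in OE under ABA. It was 3.1-fold higher in OE in water (log2 fold change 1.63, SE 0.38, adjusted p = 0.0242), with OE replicate 1 standing above replicate 2. Its 2 other probes did not pass, with log2 differences of 0.78 for A_84_P17897 (SE 0.39, adjusted p = 0.175) and 0.53 for A_84_P821710 (SE 0.64, adjusted p = 0.551).

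In water, 6 of the 16 calls (PER34, PER37, PER38, PER50, PER59 and PER63) were kept in all 14 of the alternatives run on each member. Leaving out an array moved the count of 16. It was 10 without OE in water replicate 1, 9 without replicate 2, 11 without WT in water replicate 1 and 10 without replicate 2.

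Under ABA, fewer peroxidases separated OE from WT. Of the 44 tested members, 4 were lower in OE (PER37, PER47, PER50 and PER62; 9.09%), where 6.52% of all probes were lower, and 2 were higher (PER43 and PER63; 4.55%), where 3.78% were higher. The median log2 fold change was -0.15 over the members and 0.02 over all probes. PER47 (AT4G33420) was the member that passed under ABA and not in water. It read -1.37 and -2.19 in WT in water, -2.62 and -2.30 in WT under ABA, -2.70 and -2.39 in OE in water, and -4.07 and -3.85 in OE under ABA. The OE arrays under ABA lay below the other 6, and the difference was 2.83-fold under ABA (log2 fold change -1.50, SE 0.30, adjusted p = 0.0262) against -0.77 in water (SE 0.30, adjusted p = 0.0995). The change of this difference with treatment was not shown (interaction -0.74, SE 0.42, adjusted p = 0.54).

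Leaving out an array of the groups compared moved the count under ABA further, relative to its size, than the count in water. The number of probes called over the whole array also fell in each of the fits given next, though only slightly without OE under ABA replicate 2. The fall in the count of members is not read as a trait of the peroxidases. Leaving out the WT arrays under ABA in turn brought the count of 6 to 0 (replicate 1) and 1 (replicate 2). For the OE arrays under ABA it came to 1 (replicate 1) and 3 (replicate 2). Dropping an OE water array, which bears on this comparison through the shared spread alone, gave 3 in both cases. PER63 was lost in 1 of 14 alternatives, without WT under ABA replicate 1 (adjusted p = 0.0516). PER37, PER43 and PER50 were each lost in 9 of the 14, and PER62 in 7. PER47 was lost in 6, among them each fit that left out an array under ABA.

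The water and the ABA comparisons share no array, but they share the spread estimated over all arrays. In both, OE and WT also differ in slide and scan day, so their agreement cannot be told apart from a slide or scan day effect. Of the 16 members that passed in water, 5 also passed under ABA, each in the same direction, 14 kept their sign, and 15 had a smaller difference under ABA. Since the 16 were chosen for a large difference in water, that count is a description. The 12 lower members all had a smaller difference under ABA. For PER34 the OE group mean was 2.16 in water and 3.55 under ABA, against 4.55 and 4.08 in WT. For PER59 the OE mean was -5.17 in water and -6.89 under ABA, while the WT arrays went from a mean of -0.52 to values of -5.55 and -4.44. The gap of PER34 was thus narrower where OE was higher, and that of PER59 where WT was lower.

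**Figure D3:**
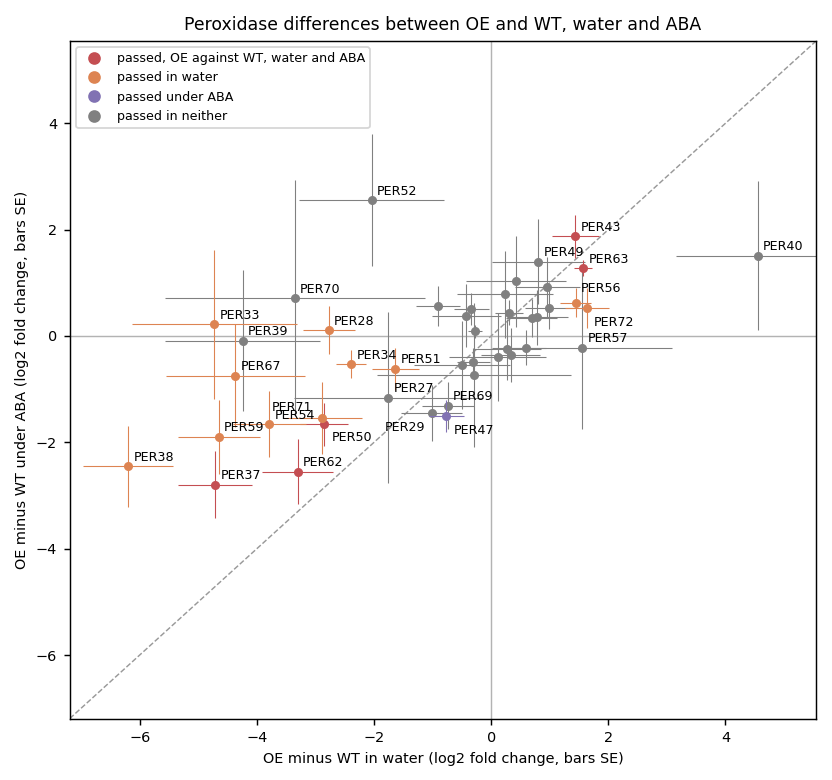
Log2 fold change of OE over WT for the 44 tested members, in water on the horizontal axis and under ABA on the vertical axis, with standard errors from limma as bars and a dashed line where both are equal. The 12 members lower in OE in water lie to the left and above the line, between -6.20 and -1.64 in water, and PER43 and PER63 lie at upper right.

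No member passed the test between ABA and water, in WT or in OE. In WT, 0 of 44 members were called, where 0.550% of all probes were higher and 0.253% lower under ABA. An unadjusted p under 0.05 and 2-fold was reached by 10 of the 44 members and by 1813 of all 31262 probes. In OE, 0 of 44 were called, where 1.70% of all probes were higher and 0.349% lower. The unadjusted threshold was reached by 7 members and by 2032 of all probes. The methods' t-test at its own threshold called 2 members in WT and 1 in OE. The median log2 fold change of ABA over water was -0.37 over the members and -0.04 over all probes in WT, and 0.14 over the members and -0.04 over all probes in OE.

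Several members came near the threshold in WT. PER21 (AT2G37130) read 1.76 and 2.11 in WT in water, 0.29 and -0.24 in WT under ABA, 1.77 and 1.43 in OE in water, and 0.84 and 0.22 in OE under ABA. Under ABA it was below water in WT and in OE alike without overlap, by -1.91 on the log2 scale in WT (SE 0.30, adjusted p = 0.0607) and by -1.07 in OE (SE 0.30, adjusted p = 0.166). It was chosen after its values were seen. The adjusted p of PER28 in WT was 0.0599, at least 1.78-fold lower under ABA (group means -5.58 in water and -8.50 under ABA), and that of PER59 was 0.0627 (log2 fold change -4.48, SE 0.70). PER28 entered this test through WT in water alone.

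In OE, the member nearest the threshold was PER34, with a log2 fold change of 1.39 for ABA over water (SE 0.26, adjusted p = 0.0608), followed by PER47 at -1.42 (SE 0.30, adjusted p = 0.0867). PER17 (AT2G22420), a peroxidase of lignified vascular tissue, read -0.11 and -0.73 in WT in water, 0.42 and 0.47 in WT under ABA, -0.20 and -0.04 in OE in water, and 1.04 and 0.73 in OE under ABA. ABA arrays lay above water arrays in both genotypes, by 0.87 in WT (SE 0.23, adjusted p = 0.163) and 1.00 in OE (SE 0.23, adjusted p = 0.111), neither of which passed.

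**Figure D4:**
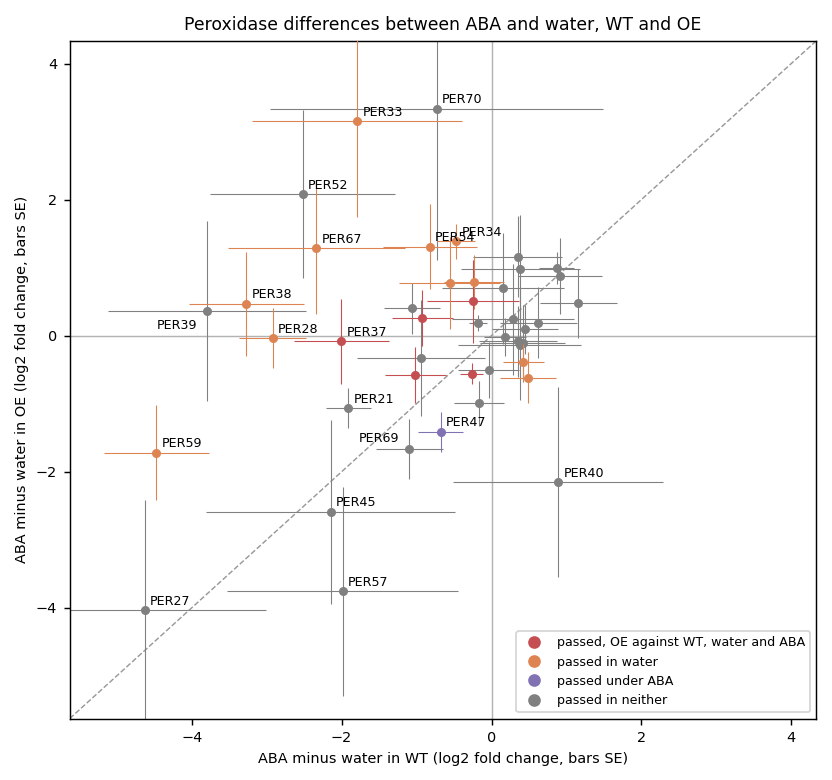
Log2 fold change of ABA over water for the 44 tested members, in WT on the horizontal axis and in OE on the vertical axis, with standard errors from limma as bars, the dashed line of equality, and colours from the test between OE and WT; some bars run past the axes. No member passed in WT or in OE; PER27 lies at lower left, and PER33, PER52 and PER70, with long error bars, lie at upper left.

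The test of whether the ABA effect differed between OE and WT called 0 members and 0% of all probes. An unadjusted p under 0.05 and 2-fold was reached by 7 of the 44 members and by 2027 of all 31262 probes. The lowest adjusted p among the members was 0.192, for PER34, whose ABA effect was 1.86 higher in OE than in WT on the log2 scale (SE 0.36). The median interaction over the members was 0.49, against 0.03 over all probes. So a difference in ABA response between OE and WT was not detected for any peroxidase with these 8 arrays.

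Among the 8 members with roles in lignin and the Casparian strip, 7 were tested and 1 was higher (PER72) and 1 lower (PER71) in OE in water, with 0 under ABA. Over all probes, 8.45% were higher and 10.6% lower in water, and 3.78% and 6.52% under ABA. With 7 genes, these counts are a description. PER39 (AT4G11290), one of the endodermal peroxidases, read 0.75 and 2.29 in WT in water, -0.64 and -3.92 in WT under ABA, -3.45 and -2.00 in OE in water, and -1.17 and -3.56 in OE under ABA. Its WT arrays in water stood above the other 6, and the log2 difference in water, -4.25 (SE 1.32), fell just short of the threshold (adjusted p = 0.0561). Its second probe, A_84_P785814, passed it (log2 fold change -3.45, SE 1.00, adjusted p = 0.0457).

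PER52 (AT5G05340), a peroxidase of lignified fibres, read -3.71 and -2.90 in WT in water, -5.71 and -5.94 in WT under ABA, -6.35 and -4.35 in OE in water, and -1.43 and -5.11 in OE under ABA. One array, OE under ABA replicate 1, set its high value, and neither the log2 difference in water (-2.04, SE 1.24, adjusted p = 0.246) nor that under ABA (2.56, SE 1.24, adjusted p = 0.199) passed. PER25 (AT2G41480), a stem lignin peroxidase, read -3.38 to -1.74 over the 8 arrays and differed by at most 0.42 on the log2 scale in any comparison of 2 groups, where the SE was 0.57. PER66 (AT5G51890), a peroxidase of xylem vessels, read -1.23 to -0.13 on its 7 arrays and passed no test. PER64, which is bound to the Casparian strip, read -4.66 on OE in water replicate 1 and was not well above background on the other 7 arrays, at -8.70 to -6.85.

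The members of root hairs and root growth were PER44, PER57, PER60, PER62, PER69 and PER73, of which 3 were tested. PER62 was lower in OE in both comparisons, as given above, and the other tested members did not pass. Over all probes, 10.6% were lower in OE in water and 6.52% under ABA. PER44 and PER73 build root hair walls together with extensins. PER44 read -7.09 and -5.73 in WT in water, -8.24 and -6.72 in WT under ABA, -3.23 and -8.47 in OE in water, and -8.81 and -8.16 in OE under ABA. PER73 read -4.53 on OE in water replicate 1 and -8.95 to -8.33 on the other 7 arrays, where it was not well above background. Both were thus far higher on 1 array of OE in water than on its replicate.

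PER57 (AT5G17820) read -4.34 and -6.89 in WT in water, -8.39 and -6.82 in WT under ABA, -2.04 and -6.09 in OE in water, and -8.66 and -6.99 in OE under ABA. Its ABA arrays were not well above background in either genotype. By the group means in OE, -4.07 in water and -7.82 under ABA, the signal was at least 5.33-fold lower under ABA, which did not pass (adjusted p = 0.327). Most of this came from water replicate 1, since replicate 2, at -6.09, lay near the lowest signal above background on its array, -6.51. PER69 (AT5G64100) read -0.63 and -1.61 in WT in water, -2.26 and -2.17 in WT under ABA, -1.47 and -2.24 in OE in water, and -3.12 and -3.93 in OE under ABA. ABA lay below water in each genotype, by -1.1 in WT (SE 0.45, adjusted p = 0.297) and -1.67 in OE (SE 0.45, adjusted p = 0.15). PER60 was dim throughout.

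Signal of 2 root hair markers was also highest in OE in water. Of the 3 markers COBL9, EXPA7 and EXPA18, 2 were above background on OE in water replicate 1, 1 on replicate 2 and 0 on the other 6 arrays. COBL9 read -5.51 and -4.03 in OE in water, -8.86 and -8.22 in OE under ABA, and -8.44 to -7.37 on the 4 WT arrays. It was called higher in OE in water (log2 fold change 3.13, adjusted p = 0.013) and lower with ABA in OE (-3.77, adjusted p = 0.0372), each against a group that was not well above background, so that these sizes are not read as folds. COBL9 entered the test through OE in water alone, the group where it was high, so neither call is read as support. EXPA7 read -4.77 on OE in water replicate 1 and -9.10 to -7.98 elsewhere. EXPA18 was not well above background on any array and read highest on OE under ABA replicate 2, at -6.30. The summed signal of the 3 markers was 0.0679 and 0.0661 on the OE arrays in water and 0.00623 to 0.0188 on the others. The mean of the 9 endodermis markers was also highest on OE in water replicate 1, at -3.20 with a summed signal of 3.77, against -5.04 to -3.76 and 1.69 to 2.61 on the other arrays. The markers did not all follow it, since CASP4 was highest on WT in water replicate 1 (-5.10, against -6.52 on OE in water replicate 1), and CASP5 was called lower in OE in water (adjusted p = 0.0498), at -6.48 and -8.61, not well above background, against -5.36 and -5.38 in WT. CASP5 likewise entered the test through WT in water alone. The part of root material in these values was not tested.

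The same array was high for PER27 and PER45, which were chosen after their values were seen. PER27 (AT3G01190) read -1.17 and -4.10 in WT in water, -8.30 and -6.22 in WT under ABA, -2.28 and -6.49 in OE in water, and -8.76 and -8.08 in OE under ABA. In both genotypes replicate 1 in water was the high array, and water lay above ABA. In WT the log2 fold change of ABA over water was -4.63 (SE 1.61, adjusted p = 0.244), with ABA replicate 1 not well above background. In OE the group means were -4.39 in water and -8.42 under ABA (adjusted p = 0.317). There, water replicate 2 and both ABA arrays were not well above background, so no fold is read. PER45 (AT4G30170) read -2.13 and -5.61 in OE in water, -6.22 and -6.70 in OE under ABA, -3.58 on the 1 measured array of WT in water, and -6.93 and -4.52 in WT under ABA.

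**Figure D5:**
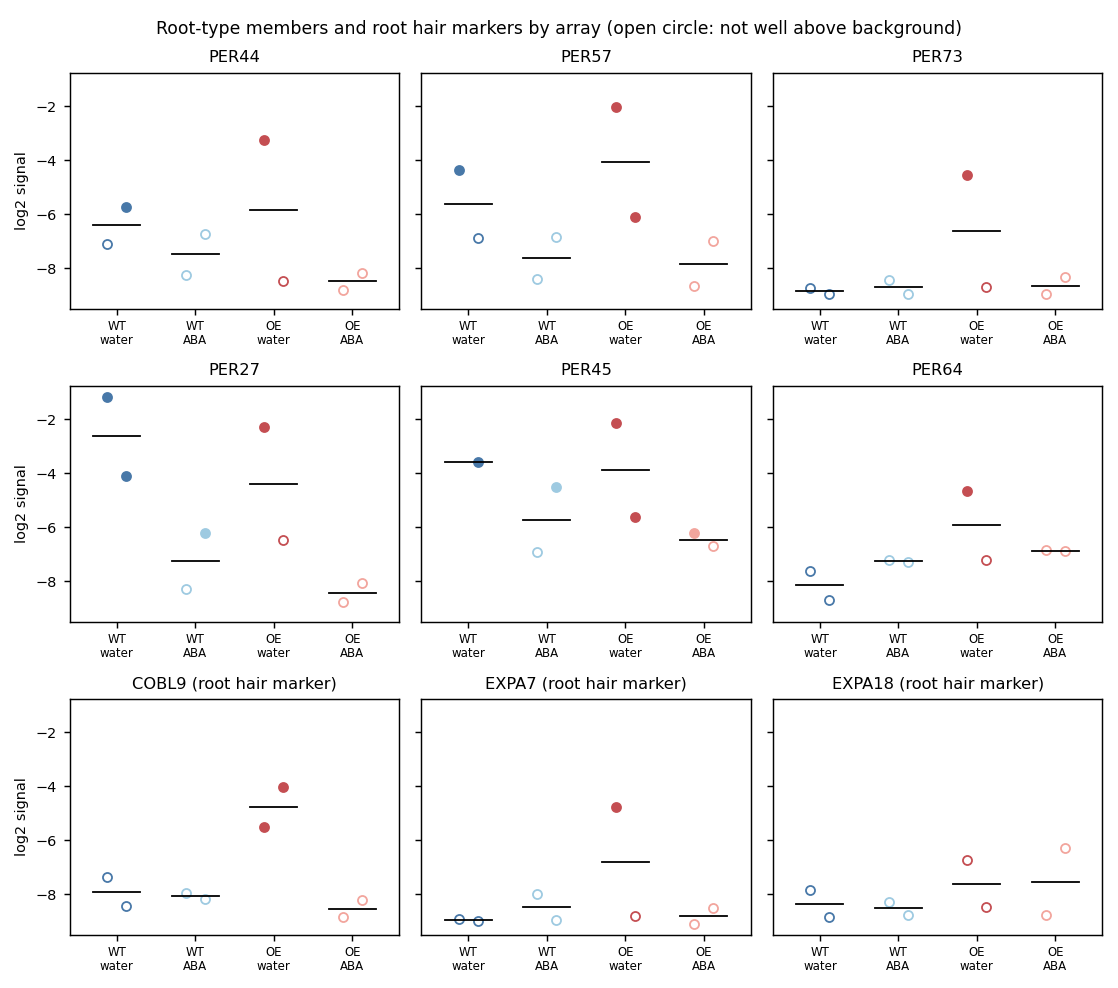
Normalized log2 signal of 6 peroxidases with high signal on OE in water replicate 1 and of the 3 root hair markers, 1 point per array with the left point for replicate 1 and the right for replicate 2, a line at the group mean, and open circles where the probe was not well above background; PER45 has 1 value in WT in water. PER44, PER57, PER73 and EXPA7 are highest on OE in water replicate 1, at -3.23, -2.04, -4.53 and -4.77.

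A few other members were high on a single array and are named after their values were seen. PER70 (AT5G64110), which stands between PER69 and PER71, read 0.06 on OE under ABA replicate 1 and -7.23 on replicate 2, against -7.38 and -6.46 in OE in water and -4.68 to -2.51 on the WT arrays. PER68 read -4.43 on OE under ABA replicate 1 and was not well above background on the other 7 arrays. PER33, PER52 and PER67 were also higher on OE under ABA replicate 1 than on replicate 2. PER40 (AT4G16270), a peroxidase of the anther tapetum, read -5.01 and -2.30 in OE in water and was dim on both WT arrays in water, at -7.44 and -8.97. It was at least 8.00-fold higher in OE (group means -3.65 and -8.21), which fell short of the threshold (adjusted p = 0.0538), and under ABA its arrays overlapped. PER46 was above background only on OE under ABA replicate 1, at -5.25, with -6.62 on replicate 2 and -8.55 to -8.08 on the other 6 arrays.

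Of the 27 tested members that passed in none of the 5 tests, 11 differed by under 2-fold in each of the 4 comparisons of 2 groups. They were PER19 (AT2G34060), PER20 (AT2G35380), PER22 (AT2G38380), PER25, PER30 (AT3G21770), PER31 (AT3G28200), PER32 (AT3G32980), PER35 (AT3G49960), PER42 (AT4G21960), PER55 (AT5G14130) and PER66. PER42, the member with the most probes on the array, 6, had SEs of 0.12 and read 7.03 to 7.37 on the 8 arrays. Its other 5 probes differed by -0.94 to -0.35 between OE and WT in water on the log2 scale and by 0.41 to 0.91 between ABA and water in OE, all under 2-fold. In water 3 of the 5 had an adjusted p under 0.05, A_84_P808432 at 0.0176, A_84_P808422 at 0.0217 and A_84_P857966 at 0.0377, and were 1.92-, 1.72- and 1.70-fold lower in OE without overlap. PER35 read -4.80 to -3.86, with SEs of 0.28. PER20, PER30 and PER55 had wider SEs, 0.82, 0.81 and 0.82. In WT in water, PER20 read -4.35 and -6.93, the second not well above background, and PER30 read -0.04 and -2.17. PER55 read -4.02 and -1.92 in WT under ABA. A difference of 2-fold would lie within the spread between the replicates of these members. A second probe of PER31, A_84_P785818, was 2.02-fold lower with ABA in OE (SE 0.32) and did not pass (adjusted p = 0.216 in limma). The remaining 5 members without a call, PER15 (AT2G18150), PER16 (AT2G18980), PER23 (AT2G38390), PER29 (AT3G17070) and PER49 (AT4G36430), reached 2-fold in at least 1 comparison. PER29 read 0.91 and -0.04 in WT in water, 1.20 and 0.37 in WT under ABA, -0.53 and -0.63 in OE in water, and -1.27 and -0.05 in OE under ABA, 2.73-fold lower in OE under ABA (log2 fold change -1.45, SE 0.52, adjusted p = 0.109).

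Many of the lower members sit beside another peroxidase. By the gene order of TAIR10.1, 9 pairs of consecutive members have no protein-coding gene between them, among them PER37 with PER38, PER50 with PER51, PER53 with PER54, PER58 with PER59, PER67 with PER68, and PER70 with both PER69 and PER71, while PER33 and PER34 have 1 gene between them. Of the 19 members in such pairs, 16 were tested and 10 were lower in OE in water, where 10.6% of all probes were lower, with a median log2 fold change of -2.87 against -0.02 over all tested probes. The list was made with these values known. Both genes were lower in PER33 with PER34, PER37 with PER38, and PER50 with PER51. In 4 other pairs 1 gene passed. PER54, PER59, PER67 and PER71 did, while their neighbours PER53 and PER70 did not and PER58 and PER68 were not tested. PER22 and PER23 passed in no comparison, nor did PER15, while its neighbour PER14 was dim. Related genes can share signal on a probe, and probe sequences were not used here, so how far a pair's probes tell its genes apart was not tested.

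The other class III peroxidases are PER1 to PER13 on chromosome 1, of which few were tested. Of 13 genes 12 had a probe and 6 were tested, of which PER12 was higher and PER10 lower in OE in water and 0 passed under ABA. Over all probes, 8.45% were higher and 10.6% lower in water, and 3.78% and 6.52% under ABA. So few genes cannot show whether their balance differs from that of PER14 to PER73, and the difference was not tested. Among the 10 NADPH oxidase genes, which make the superoxide that peroxidases act with in the burst, 4 were tested and RBOHD was lower in OE in water. RBOHD, the main oxidase of the immune burst, read 2.08 and 2.85 in WT in water, 1.12 and 1.01 in WT under ABA, 0.41 and -0.28 in OE in water, and 0.16 and -0.59 in OE under ABA. The log2 difference was -2.40 in water (SE 0.39, adjusted p = 0.00953) and -1.28 under ABA (SE 0.39, adjusted p = 0.0744).

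Calls among the genes that make or couple monolignols are given as a description, beside the shares over all probes. In OE against WT, 3.78% of all probes were higher and 6.52% lower under ABA, and 8.45% higher and 10.6% lower in water. With ABA in OE, 1.70% were higher. The 13 tested laccases, the other enzymes that couple monolignols, had a median log2 fold change of OE over WT of 0.79 under ABA and 0.61 in water, against 0.02 and -0.02 over all probes. Of these, LAC4 was higher in OE under ABA (log2 fold change 1.1, SE 0.20, adjusted p = 0.0217). In water 0 passed, though LAC4 missed only the 2-fold mark there (0.91, SE 0.20, adjusted p = 0.0215). LAC1 and LAC2 had larger differences under ABA, 3.35 (SE 1.04, adjusted p = 0.0801) and 2.84 (SE 0.74, adjusted p = 0.0526), that did not pass. Of 16 tested genes of monolignol synthesis, F5H1 was lower in OE under ABA (-1.13, SE 0.25, adjusted p = 0.0333) and CAD5 was lower in OE in water (-1.64, SE 0.18, adjusted p = 0.00381). CAD5, which makes the monolignols' alcohol group, was also higher with ABA in OE (1.95, SE 0.18, adjusted p = 0.00967). No member passed that test, in which PER34 was at 1.39 (adjusted p = 0.0608).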

How the data were processed

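RNA of the 8 samples was hybridized with 1 dye to Agilent Arabidopsis oligonucleotide arrays. The authors deposited each array's scanner output from Feature Extraction 10.7.3.1, with the background-subtracted intensity of 45220 spots, and a table of log2 values that the methods describe as normalized with MAS 5.0. After control and outlier spots were removed, replicate spots were averaged, and log2 intensities were scaled to the 75th percentile of their array. Transcript accessions of 34394 of 43603 gene probes (78.9%) matched a locus tag in the RefSeq table of TAIR10.1. The test used limma 3.58.1 under R 4.3.3 on the 31262 probes that both arrays of some group showed well above background. A single linear model with a mean per group left 4 residual degrees of freedom, to which eBayes added 1.99, and p-values were adjusted over all of these probes. Precision is limited by how few arrays there are.

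Where a probe was not well above background on both arrays of a group, a fold is given as a bound, against the higher of its own signal and the lowest signal above background on each array. The members, gene lists and tests were chosen with earlier results of these data known. Values by array are given for members that passed and for members of the role lists, and others are marked where named. OE and WT arrays were read with different versions of the design file, in which 208 probes, none of a member, had another systematic name. Alternatives changed the normalization, background correction, dim-probe filter, blocks, arrays, threshold, test and probe. The fit was tested on simulated data. Promoters and proteins were not analysed here.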

Additional observations from a re-analysis of the deposited data

Results flagged for a closer look

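In 4 members, the arrays separated fully in 2 comparisons, in opposite directions. The share of all probes with this pattern was not counted, so the number of members is a description and not a result. The ABA arrays of PER34 lay below the water arrays in WT and above them in OE, with an interaction of 1.86 on the log2 scale (SE 0.36, adjusted p = 0.192 in limma). PER42 had the same pattern at a far smaller size, 0.36 (SE 0.17, adjusted p = 0.474), and 2 of its other 5 tested probes had the opposite sign in WT. PER38 had it at 3.74 (SE 1.08, adjusted p = 0.302), but all of its OE arrays were not well above background, so that no direction in OE can be read. The OE arrays of PER52 lay below those of WT in water and above them under ABA, with a difference of 4.60 (SE 1.75, adjusted p = 0.396). None of the 4 differences passed the test. Groups of 2 arrays are too small to look for single outlying arrays.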

How the results depend on the processing

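For single members, 72 log2 differences of at least 2-fold were recomputed in up to 14 alternatives each, 1005 values in all, of which 890 kept direction and side of the threshold, 85 lost the call, 26 gained one and 4 changed sign. The 4 were uncalled differences, PER40 in OE against WT under ABA (-0.017 without WT_ABA replicate 2, to 3.04 without replicate 1), PER27 in water (0.35 without OE_water replicate 2, to -3.86 without replicate 1), PER57 in water (-0.48 without OE_water replicate 1, to 3.58 without replicate 2) and PER70 for ABA in OE (-0.31 without OE_ABA replicate 1, to 6.98 without replicate 2). The count of members in OE against WT under ABA, 6 in the main setting, was 3 with normexp background correction and quantile normalization, 3 with no filter on dim probes, 2 with the replicate block, 0 with adjusted p-values of the methods' t-test, and 0 to 6 when each array was left out. In water, 16 became 4 with the methods' t-test unadjusted, 0 after adjustment and 9 to 17 when each array was left out, while other settings gave 13 to 18. For ABA in WT, 0 became 1 with the authors' table, 2 with normexp, 3 with slide as a random block, 2 with the unadjusted t-test and 0 to 1 with an array left out. For ABA in OE, 0 became 1 with the unadjusted t-test and 0 to 1 with an array left out. The interaction called 0 members in each setting run. The cause of these changes was not tested. With 1 array left in a group, that array is assumed to vary like the others. Arrays of the same number did not deviate together (correlations between -0.18 and 0.11 over 6 pairs of groups), so the block carries only a shared number, and with it the count in water was 15. The SE of a member's difference between groups ran from 0.12 (PER42) to 2.22 (PER70), which sets how small a change 2 arrays per group can show.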
